A study of Mus musculus with 8 samples.

Results

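Effector-type regulatory T cells of the mouse meninges were taken as T cells with at least 1 UMI (unique molecular identifier, 1 counted RNA molecule) of Foxp3 and at least 1 UMI of Klrg1, Areg, Gzmb, Il10, Il1rl1 or Lag3. Of 4940 meningeal T cells, 561 had a Foxp3 UMI, and 185 of these were effector-type, 75 in replicate 1 and 110 in replicate 2. The other 376 Foxp3-positive cells, 43 and 333, had no UMI of the 6 genes and were the comparison in each replicate. The hashtag (a DNA-barcoded antibody) of a cell's sample had to reach 10 counts and 5 times the second-ranked hashtag. Cells also needed at least 500 genes, under 10% mitochondrial UMIs and a UMI of Cd3d, Cd3e or Cd3g. The 6 genes, Foxp3 and the Cd3 genes chose the cells, so their levels are a description and were not tested.

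Foxp3 is the transcription factor that defines regulatory T cells, which restrain other immune cells. In tissues, regulatory T cells often take on an effector state: they express the inhibitory lectin receptor Klrg1, the IL-33 receptor chain Il1rl1 (ST2) and the growth factor amphiregulin (Areg), which is known for its part in tissue repair. Il10 encodes an anti-inflammatory cytokine, Gzmb a cytotoxic protease and Lag3 an inhibitory receptor that binds MHC class II.

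The study sorted CD45+ CD3+ CD4+ cells from the meninges of perfused mice and measured RNA, T-cell receptors and hashtags in the same cells. Replicate 1 had the genotype Foxp3-GFP and replicate 2 the genotype B6.WT, neither with a treatment, and the labels give no age or number of animals for them. Hippocampal libraries of the series, from Foxp3-DTR- and Foxp3-DTR+ mice given diphtheria toxin, are not used here. Genotype, library and Cell Ranger version all change together between the replicates and cannot be told apart.

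The hashtag sequences decide which cells belong to a sample and are shown for that reason, in lower case throughout. For replicate 1 the label pairs the name hashtag 7 with the sequence of hashtag 10, which replicate 1's table does not hold, so the name decided there.
Hashtag 7, replicate 1: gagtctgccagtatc
Hashtag 10, replicate 2: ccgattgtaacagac

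The receptor sequences below are those of the clonotypes that held most effector-type cells or most cells in all, given as the CDR3 (the stretch that varies most between T cells) with its first and last codon in capitals. The first was found in 2 effector-type cells of replicate 1 and in no other cell. The second was found in 6 cells of replicate 2, of which 1 was effector-type, 1 was another Foxp3-positive cell and 4 had no Foxp3 UMI.
TRBV16-TRBJ2-5, replicate 1: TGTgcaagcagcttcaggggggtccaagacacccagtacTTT
TRAV4-4-DV10-TRAJ33, its partner: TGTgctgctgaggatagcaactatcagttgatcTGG
TRBV19-TRBJ1-1, replicate 2: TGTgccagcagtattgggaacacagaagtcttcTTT
TRAV10-TRAJ40, its partner: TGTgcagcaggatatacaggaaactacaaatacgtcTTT

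Effector-type cells held a median of 4128 UMIs against 2862 in the other Foxp3-positive cells of replicate 1, and 2063 against 1585 in replicate 2. They were the deeper class in both. In replicate 1, 23 of 75 effector-type cells had a hashtag margin of 5 to 20 against 1 of 43 others, and 21.2% of those with a TCR beta chain had 2 or more (14 of 66) against 7.89% (3 of 38). In replicate 2 the classes lay close in both respects: 33 of 110 against 92 of 333 had the low margin, and 9.46% against 9.09% had 2 or more beta chains. Low margins and extra beta chains mark barcodes that may hold 2 cells, and their part in the results below was not tested beyond the fits without such cells. No doublet caller was run. The libraries shared 554 barcodes, none of them among effector-type cells.

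The 6 genes were detected in different proportions in the replicates. In replicate 1, Areg was found in 27 of 75 effector-type cells, Lag3 in 23, Gzmb in 22, Klrg1 in 19, Il10 in 12 and Il1rl1 in 8. In replicate 2, Klrg1 led with 70 of 110 cells, followed by Areg with 32, Il1rl1 with 17, Gzmb with 16, Lag3 with 11 and Il10 with 4. Klrg1 was thus the most frequent in replicate 2 and the fourth in replicate 1. Most members were chosen by 1 gene: 25 of 75 and 36 of 110 held 2 or more of the 6. The rule's lowest step, a single UMI, was met by 28 and 48 cells, while 47 and 62 had 2 or more UMIs. The most frequent pair was Gzmb with Lag3 in replicate 1, in 9 cells, and Klrg1 with Areg in replicate 2, in 11 cells.

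T cells without a Foxp3 UMI give a comparison level for the same genes, but may include regulatory T cells whose Foxp3 was not detected. A single Foxp3 UMI was held by 49 of 75 effector-type and 27 of 43 other Foxp3-positive cells in replicate 1. In replicate 2 it was 53 of 110 and 236 of 333. Klrg1 was detected in 16.1% of Foxp3-positive and 6.22% of Foxp3-negative cells of replicate 1, and in 15.8% and 4.93% in replicate 2. Il1rl1 was detected in 6.78% against 1.49% and in 3.84% against 0.793%. These shares describe genes of the rule in cells of unequal depth. Areg was found in 22.9% against 11.5% in replicate 1 and in 7.22% against 1.14% in replicate 2. Gzmb was found in 18.6% against 10.0% and Lag3 in 19.5% against 7.10% in replicate 1, and in 3.61% against 2.83% and 2.48% against 2.28% in replicate 2. With each cell thinned to 1000 UMIs, Klrg1 stood at 7.89% (3 of 38 Foxp3-positive cells) against 2.62% in replicate 1 and at 11.8% against 3.71% in replicate 2, and Areg at 7.89% against 5.45% and 4.96% against 0.846%. Il1rl1 then stood at 0 of 38, which allows a share of up to 9.25% (exact 95% interval), against 0.403%, and at 0.763% against 0.294%. Thinned Gzmb stood at 5.26% against 4.10% and 2.67% against 1.84%, and Lag3 at 7.89% against 3.83% and 1.91% against 1.36%. In replicate 1 each of these thinned shares rests on at most 3 Foxp3-positive cells. Cells that lost their Foxp3 UMI on thinning were counted as Foxp3-negative, which raised that group from 1412 to 1487 and from 2583 to 2720 cells.

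**Figure D1:**
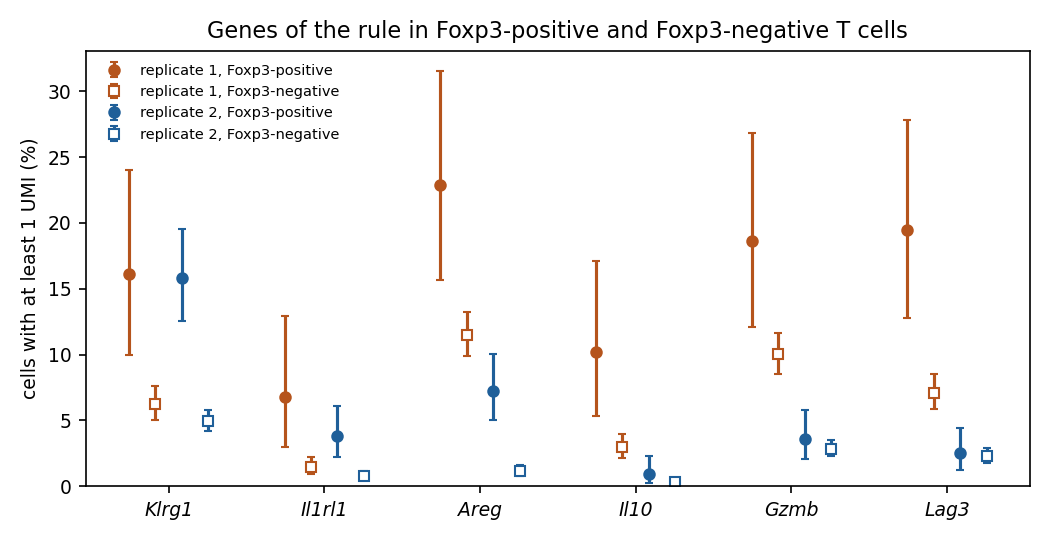
Percent of cells with at least 1 UMI of each gene of the rule, in Foxp3-positive (filled circles) and Foxp3-negative (open squares) T cells of replicate 1 (orange) and replicate 2 (blue), with exact 95% binomial intervals that cover counting error only. Klrg1 stands at 16.1% and 15.8% of Foxp3-positive cells, while Gzmb and Lag3 in replicate 2 lie near the Foxp3-negative cells.

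Effector-type cells were 63.6% of Foxp3-positive cells in replicate 1 (exact 95% interval 54.2 to 72.2) and 24.8% in replicate 2 (20.9 to 29.1), and the same 6 genes were met in 32.6% and 11.3% of Foxp3-negative cells. The share was higher in the deepest than in the shallowest of 4 equal groups of Foxp3-positive cells, at 79.3% against 46.7% in replicate 1 and 42.7% against 17.1% in replicate 2. It did not rise at every step: in replicate 2 the second group stood at 15.3%, and in replicate 1 the third stood at 79.3% like the deepest. Foxp3-negative cells of the same ranges of UMIs stood at 42.3% against 31.7% in replicate 1 and 15.8% against 11.3% in replicate 2. With every cell thinned to 1000 UMIs, 31.6% (12 of 38) and 18.7% (49 of 262) of the cells that still had a Foxp3 UMI met the rule, against 16.3% and 7.57% of Foxp3-negative cells. The thinned Foxp3-negative cells included those that had lost their Foxp3 UMI. The intervals of the 2 replicates, 17.5 to 48.7 and 14.2 to 24.0, then overlapped, and shares of the unthinned cells do not compare the genotypes at equal depth.

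**Figure D2:**
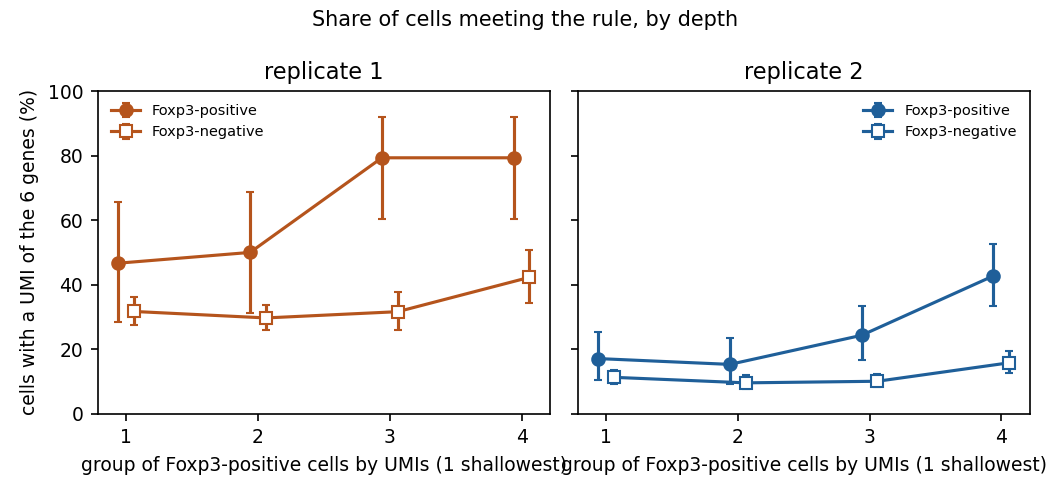
Percent of cells with a UMI of the 6 genes in each of 4 equal groups of the Foxp3-positive cells by UMIs per cell (1 shallowest), with Foxp3-negative cells of the same range of UMIs beside them; bars are exact 95% binomial intervals for counting error. In the deepest group the share is 79.3% in replicate 1 and 42.7% in replicate 2.

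Cells with the TRAV11-TRAJ18 alpha chain of invariant natural killer T cells should mostly lack Foxp3, and they give a background share. Of these, 1 of 104 in replicate 1 (0.962%, median 3536.5 UMIs) and 18 of 353 in replicate 2 (5.10%, median 1874.0 UMIs) had a Foxp3 UMI, against 7.65% (median 3021.0 UMIs) and 15.6% (median 1737.0 UMIs) of cells with other receptors. Any of the 6 genes, with or without Foxp3, was met in 27.9% of TRAV11-TRAJ18 cells against 34.1% of cells with other receptors in replicate 1. In replicate 2 it was 13.9% against 12.5%, so the 6 genes alone did not separate the receptors there. Foxp3 together with any of the 6 genes was met in 1 of 104 and 3 of 353 TRAV11-TRAJ18 cells, against 4.45% and 4.04% of cells with other receptors. The exact 95% intervals were 0.0243 to 5.24 and 0.176 to 2.46 in TRAV11-TRAJ18 cells, against 3.28 to 5.90 and 3.04 to 5.25, so they overlapped in replicate 1. Among Foxp3-positive cells with 1 beta and at least 1 alpha chain, 1 of 47 effector-type and 0 of 33 other cells of replicate 1 carried TRAV11-TRAJ18. In replicate 2 it was 3 of 56 and 15 of 167, with overlapping intervals. The comparison class of replicate 2 thus held such cells, and their part in the gene differences below was not tested.

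The other genes of the cells were compared between effector-type and other Foxp3-positive cells with UMIs summed by class and replicate, giving 4 sums, and edgeR's quasi-likelihood test with the replicate as a block. Of 4803 genes tested, 41 passed an adjusted p of 0.05 (0.854%), 26 higher (0.541%) and 15 lower (0.312%) in effector-type cells. Activation and suppression receptors, calcium-binding S100a6, the galectin Lgals1 and the integrin Itgae were among the higher. This count was not stable: over 15 other settings it ran from 0 to 88, and the fit without the block called 0 (106 genes at an unadjusted p under 0.05). DESeq2 called 2. The spread is shared by all genes here and rests on 1 residual degree of freedom, so a gene whose UMIs sit in 1 cell can pass. In 17 of the 41 genes, over 50% of the UMIs of the higher class in a replicate came from 1 cell. Without the top cell of each class, 26 of the 41 kept their direction in both replicates, 22 higher and 4 lower.

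Of 10 tested coreceptor genes, Icos and Tigit passed higher and none lower, and of 7 tested genes of the TNF receptor and ligand list, Tnfrsf9 alone passed, where 0.541% of all genes passed higher. Members that did not pass include Cd28 (0.60), Pdcd1 (0.29), Cd27 (0.24), Cd226 (-0.06), Cd96 (-0.69) and Tnfrsf4 (0.52), all as log2 differences. Ctla4, the inhibitory receptor that competes with CD28, stood at 895 CPM (UMIs of the gene as a share of all UMIs of the summed cells, scaled as usual) in effector-type and 245 in other cells of replicate 1, and at 342 and 235 in replicate 2. One cell held 20.8% of the Ctla4 UMIs of the effector-type cells in replicate 1. The log2 difference was 1.10 ± 0.21 (SE, adjusted p = 7.16e-05, edgeR). The costimulatory receptor Icos stood at 737 against 318 CPM and at 640 against 360 (0.96 ± 0.20, adjusted p = 0.000377, edgeR). Tigit, an inhibitory receptor, stood at 554 against 259 CPM and 411 against 255 (0.83 ± 0.21, adjusted p = 0.0164, edgeR). Tnfrsf9 (4-1BB), an activation-induced receptor of the TNF family, stood at 382 against 259 CPM and 346 against 159 (0.85 ± 0.23, adjusted p = 0.0279, edgeR). Each of the 4 was higher in both replicates, and their direction held in all 15 other settings, but Ctla4 passed the threshold in 4 of these, Icos in 5, Tigit in 3 and Tnfrsf9 in 2. With a hashtag margin of 20 and at most 1 TRB chain, Ctla4 differed by 0.63 (adjusted p = 0.384, edgeR), Icos by 0.76 (adjusted p = 0.0851, edgeR) and Tigit by 0.77 (adjusted p = 0.0801, edgeR), none past the threshold.

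Of 8 tested integrin and adhesion genes, Itgae alone passed, beside 0.541% of all genes higher, and the median of the list was 0.03. Itgav (0.91) and Itgb1 (-0.08) were among those of the list that did not pass. The chemokine receptor gene Cxcr6 (-0.10), of the tissue effector list, did not pass either. Itgae, the alpha chain of the integrin that binds E-cadherin, was found in 15 of 75 effector-type cells and 1 of 43 others in replicate 1, and in 15 of 110 and 7 of 333 in replicate 2 (2.42 ± 0.55, adjusted p = 0.00264, edgeR). S100a6 stood at 2757 against 1625 CPM and at 1777 against 991 (0.78 ± 0.15, adjusted p = 0.000134, edgeR). With the same margin and chain limit it differed by 0.80 and passed. It passed the threshold in 8 of 15 other settings, Lgals1 in 6 and Itgae in 3 of the 13 in which it could be tested. Lgals1, a galectin that binds cell-surface glycans, stood at 1320 against 1048 CPM and 1818 against 843 (0.72 ± 0.16, adjusted p = 0.00252, edgeR). Vim, the intermediate filament vimentin, the actin-capping protein gene Capg and Glrx, a glutaredoxin, also passed, with log2 differences of 0.68, 0.64 and 0.91. Vim passed in 5 and Glrx in 4 of the 15 other settings. Ccr2, a receptor for inflammatory chemokines, differed by 0.98 at an adjusted p of 0.0524 (edgeR) and was not called.

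Early activation genes were partly higher. Nr4a1, induced by T-cell receptor signals, stood at 166 against 26.5 CPM and at 178 against 67.2 (1.68 ± 0.32, adjusted p = 7.16e-05, edgeR). Cd69, which holds T cells in tissue, stood at 410 against 172 CPM and 418 against 280 (0.80 ± 0.22, adjusted p = 0.0383, edgeR). Nr4a1 passed in 5 of the 14 other settings in which it could be tested, and Cd69 in 2 of 15. Over the 15 tested genes of the early activation list, these 2 passed higher and none lower, beside 0.541% of all genes higher. The median of the list was 0.39 against -0.01 over all genes. Of the 15, 12 were higher in both replicates, as were 27.9% of all 4803. Nfkbid, an NF-kappa-B regulator, Isg15, an interferon-induced modifier, and Rgs1, a regulator of G-protein signals, passed too, with differences of 1.47, 1.43 and 0.77. Among other settings, Nfkbid passed in 5 of 14, Isg15 in 5 of 15 and Rgs1 in 3 of 15. Ccl5, a chemokine of cytotoxic and memory cells, stood at 1148 against 663 CPM and 1438 against 719 (0.88 ± 0.17, adjusted p = 0.00011, edgeR), and was higher still, at 1929 CPM, in Foxp3-negative cells of replicate 1. Ccl5 passed in 5 of 15 other settings. Of 6 tested genes of the Th1 (type 1 helper T cell) and cytotoxic list, 2 passed higher and none lower, beside 0.541% of all genes higher. The median of that list was 0.17, and 2 of the 6 were higher in both replicates. Ifng (1.11 and -0.18), Nkg7 (0.82 and -0.10) and Xcl1 (0.46 and -0.66) went opposite ways in the replicates.

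For some of the largest differences, 1 cell held most of the UMIs. Ccl4, an inflammatory chemokine, differed most (5.47 ± 0.45, adjusted p = 5.61e-30, edgeR), but a single cell held 85.7% of its UMIs in replicate 1 and 98.0% in replicate 2. For Acta2 and Actg2, actins of smooth muscle whose reads can be shared, and for Tagln and Dstn, which bind or sever actin, the same cell of replicate 1 held the most UMIs, from 68.1% for Dstn to 96.0% for Acta2. A second cell of replicate 1 held 230 of the 278 UMIs of the stromal list there, and 85.3% and 89.7% of the UMIs of the matrix genes Sparc and Col3a1. Without the top cell of each class, the replicate 1 difference went from 3.36 to 1.74 for Ccl4, from 4.34 to 0.31 for Acta2, from 2.35 to -0.36 for Tagln and from 2.26 to 1.61 for Dstn, while that of Sparc stayed near its value (2.70 and 2.66). In replicate 2 the difference went from 4.44 to 0.37 for Ccl4 and from -0.21 to 0 for Sparc. Jchain, a plasma cell gene, differed by -4.73 on the log2 scale, and 1 of the other Foxp3-positive cells of replicate 2 held 99.6% of the UMIs there. Ighm and Cd74, also genes of antigen-presenting or B cells, had 64.4% and 58.4% in 1 cell. Effector-type cells had 3 of 6 B-cell genes at 0 in each replicate, as had the other Foxp3-positive cells of replicate 1. UMIs of the B-cell list were found in 60 effector-type cells of replicate 1 and 74 of replicate 2. The list stood at 588 against 597 CPM in replicate 1 and at 517 against 1770 in replicate 2. There 1 of the other cells held 70.8% of its UMIs. In each replicate, 1 or no effector-type cell had 20 or more UMIs of the B-cell list or of the myeloid list. For the stromal list it was 2 cells in replicate 1 and 0 in replicate 2.

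Smc4, a condensin subunit, stood at 172 against 504 CPM and 270 against 330 (-0.88 ± 0.22, adjusted p = 0.0133, edgeR). Of 9 tested cell-cycle genes, 1 passed lower (Stmn1) and none higher, beside 0.312% of all genes lower. Stmn1 passed in 0 of the 13 other settings in which it was tested. None of the 9 had the same direction in both replicates: Stmn1 differed by -3.12 in replicate 1 and by 0.91 in replicate 2. Ly6c2 stood at 91.8 against 153 CPM and 120 against 278 (-1.06 ± 0.27, adjusted p = 0.0164, edgeR), with 82.6% of the other cells' UMIs in 1 cell of replicate 1, and without the top cell of each class the replicate 1 difference turned to 0.37. None of the 14 tested genes of quiescence and recirculation passed. Their median was -0.43, and 6 of the 14 were lower in both replicates, beside 24.0% of all genes. Tcf7, a transcription factor of naive and memory T cells, was among these 6, at 45.9 against 106 CPM and 137 against 159 (-0.57 ± 0.31). Of the 14, 1 was higher in both replicates. Others went opposite ways, among them Lef1 (0.20 in replicate 1 and -0.57 in replicate 2) and Bcl2 (0.92 and -0.90).

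General regulatory T cell genes were mixed. Il2ra, the high-affinity IL-2 receptor chain, stood at 123 against 153 CPM and 175 against 177 (-0.16 ± 0.27). Ikzf2 (Helios) stood at 516 against 617 CPM in replicate 1 and at 712 against 444 in replicate 2 (0.23 ± 0.19), in opposite directions. Of 11 tested genes of the identity list, Ctla4, Capg and Rln3, a relaxin peptide gene, passed higher and none lower, beside 0.541% of all genes higher. Capg passed in 2 and Rln3 in 1 of the 15 other settings. Of 20 tested genes of the tissue effector list, S100a6, Lgals1 and Itgae passed higher and none lower, beside 0.541% of all genes higher, and the median was 0.68 against -0.01 over all genes. Itgae is counted in this list and in the integrin and adhesion list. The transcription factors Gata3 (0.68 ± 0.29) and Rora (0.69 ± 0.28), both used by ST2-positive tissue regulatory T cells, were higher in both replicates and did not pass.

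Levels also differed between members with 1 UMI and those with 2 or more UMIs of the 6 genes. Icos stood at 318, 489 and 846 CPM in cells with 0, 1 and 2 or more such UMIs in replicate 1 and at 360, 450 and 753 in replicate 2. Tigit stood at 259, 414 and 615 and at 255, 331 and 458. S100a6 stood at 1625, 2221 and 2992 and at 991, 1489 and 1948. These 3 genes were in the same order in both replicates, and cells with more such UMIs were also deeper (medians 2862.0, 2973.5 and 4481.0 UMIs, and 1585.0, 1886.0 and 2243.0). Il2ra kept no such order, at 153, 104 and 132 and at 177, 184 and 169. Cells with 0 such UMIs are the other Foxp3-positive cells of the gene test above, so the step from 0 repeats that comparison. The grades come from the rule's own genes and were not tested. The genes of this comparison were chosen after their values were seen.

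**Figure D3:**
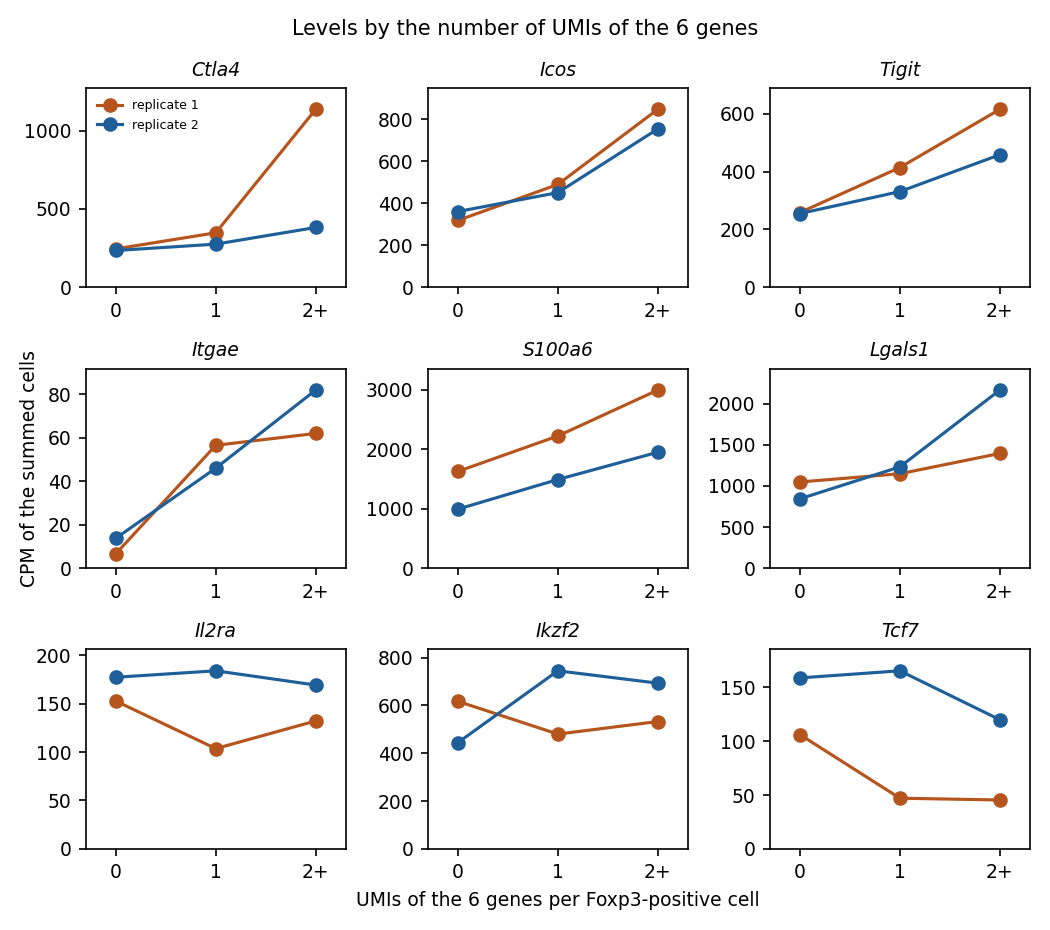
CPM of summed Foxp3-positive cells with 0, 1, and 2 or more UMIs of the 6 genes of the rule, in replicate 1 (orange) and replicate 2 (blue), for 9 genes; each panel has its own linear scale from 0. Icos, Tigit and S100a6 stand in the same order in both replicates, Il2ra and Ikzf2 do not.

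T-cell receptors were not used by the rule. Of effector-type cells with 1 beta and at least 1 alpha chain, 6 of 47 (12.8%, exact 95% interval 4.83 to 25.7) in replicate 1 and 2 of 56 (3.57%, 0.435 to 12.3) in replicate 2 belonged to a clonotype of 2 or more T cells. In the other Foxp3-positive cells it was 3 of 33 (9.09%) and 10 of 167 (5.99%). The difference, effector-type minus other, had opposite signs in the replicates and averaged 0.629 ± 4.31 percentage points (SD, n = 2), less than the spread between replicates. With clonotypes defined by the nucleotide TRB alone, the difference was 2.77 and 3.52 points in the replicates (mean 3.15 ± 0.53), from 7 of 47 against 4 of 33 and 7 of 56 against 15 of 167 cells, and the exact 95% intervals of the shares overlapped in both. With 2 replicates no exact test can reach a p of 0.05. Foxp3-negative cells were at 18.5% in replicate 1 and 11.2% in replicate 2. The clonotype was shared with a Foxp3-negative cell for 4 of 47 and 2 of 56 effector-type cells, and for 3 of 33 and 10 of 167 other Foxp3-positive cells. No effector-type clonotype was found in both replicates.

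Trbv1 RNA was lower in effector-type cells, at 204 against 630 CPM and 82.2 against 301 (-1.75 ± 0.24, adjusted p = 1.29e-10, edgeR), and kept this direction in all 15 other settings, passing in 9. In the receptor libraries TRBV1 was carried by 3 of 47 effector-type and 4 of 33 other cells in replicate 1, and by 3 of 56 and 12 of 167 in replicate 2, with overlapping intervals. One cell held 45.3% of the Trbv1 UMIs of the other cells in replicate 1.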

How the data were processed

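The authors' deposited expression matrices are unnormalized UMI counts, made per the file headers with Cell Ranger 4.0.0 (replicate 1) and 6.0.0 (replicate 2); the submitters' processing notes name Cell Ranger 6.1.0, Seurat and mm10. The deposited hashtag tables hold counts and the deposited receptor tables list contigs with UMI counts. The labels name a 3' kit and the series design a 5' kit, which is not settled here. Members, lists and the named genes' rule were chosen with earlier results of these data known. The rule for named genes took up to 12 highest and 12 lowest past an adjusted p of 0.05, in the same direction in both replicates, with mean log2 CPM of at least 6. It added genes of 3 lists (identity, tissue effector, quiescence) with at least 20 UMIs. Other genes in the text, among them Tigit, Tnfrsf9, Cd69, Ccl5, Rgs1, Vim, Glrx, Stmn1 and Trbv1, lie outside this rule. UMIs were summed by class and replicate and tested with edgeR 4.0.16 in R 4.3.3 (filterByExpr, TMM, Benjamini-Hochberg, replicate block), without the 10 genes that chose the cells. The test was checked on simulated data. Same-replicate sums come from 1 library; their deviations correlated over 4803 genes (r = 0.44, rho 0.26). Differences within a replicate use log2 of CPM plus 10. Receptor clonotypes used nucleotide CDR3s; non-productive contigs (6352 of 24132 in replicate 1) were removed. DESeq2 1.42.0 was an alternative. Single values of 1 list gene are not reported here. P-values measure a spread between these sums that was pooled over all genes, not that of each gene, and it may be technical. The SEs were derived from the log2 difference and the test statistic. They do not give the spread of a gene's differences within the 2 replicates, which were 1.83 and 0.52 for Ctla4. Replicate 1 held 13402 barcodes and 60.9 M UMIs, replicate 2 33575 and 68.8 M.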

Additional observations from a re-analysis of the deposited data

How the results depend on the processing

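Of the 15 other settings of the gene comparison, 4 were chosen after seeing the data: a hashtag margin of 20 with at most 1 TRB chain, Il10 and Lag3 left out of the rule, cells with 20 or more UMIs of a B, myeloid or stromal list removed, and each cell's count of a gene capped at 10. As reported, 41 genes were called. Without the replicate block, 0 were called (106 at an unadjusted p under 0.05), so the calls depend on the pairing. DESeq2 called 2, a margin of 20 called 6, a margin of 2 called 3, at most 1 TRB chain 7, at least 2 UMIs of the rule genes 1, Lag3 left out 19, at least 1000 genes 0 (218 at an unadjusted p under 0.05), thinned cells 5, Il10 and Lag3 left out 2, without lineage cells 14 and the cap 88. No filter gave 50, cells with 1000 to 3000 UMIs gave 29 of 1448 tested (8 higher and 21 lower), and a margin of 20 with at most 1 TRB chain gave 30. The cause of these moves was not tested.

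The share of Foxp3-positive cells that were effector-type moved in replicate 1 from 63.6% to 78.2% at a margin of 2, to 39.8% at 2 UMIs, to 50.8% without Il10 and Lag3 and to 31.6% thinned; in replicate 2 from 24.8% to 14.0% at 2 UMIs, to 39.1% at 1000 genes and to 18.7% thinned. The mean over the replicates of the share of Foxp3-positive cells that are effector-type was 44.2% and ran from 24.8% to 63.6% when either was left out. The clonotype difference of 0.629 percentage points ran from -1.19 to 3.15 over the other settings, and from -2.42 to 3.68 with either replicate left out. Cd74 reversed to 0.055 at a margin of 20, 1.5 at a margin of 2, 0.85 with 1000 to 3000 UMIs, 0.15 without lineage cells and 0.0377 with the cap. Jchain reversed to 0.44 and Igkc to 0.72 at a margin of 2. Igkc reached 0.90 without lineage cells and 0.61 with the cap, Tagln -0.50 without lineage cells, Col3a1 -0.30 with the cap and Ube2c 0.0348 with both a margin of 20 and at most 1 TRB chain. Within single replicates, Sparc ran from -0.21 to 2.70, Apoe from -3.14 to 0.37, H2ac8 from -3.64 to 0.29, Igkc from -2.78 to 1.17, Col3a1 from 0 to 1.87, H2ax from -3.15 to 0.49, Trbv13-1 from -2.49 to 0.40, Stmn1 from -3.12 to 0.91 and Ube2c from -5.03 to 1.46. Low depth per cell limits all detection shares.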
